A study of Mus musculus with 8 samples.

Results

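Low oxygen changes what a cell asks of its mitochondria, and 5 genes of that response are described here in neuro2a (N2a) cells after knockdown of Grp94, a chaperone of the endoplasmic reticulum encoded by Hsp90b1. The genes are Bnip3, Bnip3l, Fam162a, Higd1a and Ak3l1. They were picked by gene symbol from the deposited table, and every transcript cluster that carries 1 of these symbols was kept. A transcript cluster is the unit that an Affymetrix Mouse Gene 1.0 ST array reports, a group of transcripts read through probes along their exons. This gave 8 of the 2395 transcript clusters in the table. The genes were chosen by their differences in the very contrast that is described below, so those differences are a description and no test was made on them.

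N2a is a mouse neuroblastoma line. The labels give 4 arrays of cells that received a control vector, described as empty in the design, and 4 arrays of cells that received vectors expressing an artificial microRNA against Grp94. Both groups were transfected and then incubated further, and sorting of the transfected cells is not described. The labels do not say that the arrays of a group came from separate cultures. The methods name more than 1 construct for the knockdown and a non-targeting control beside the empty one, without a link from construct to array in the labels. The table gives 1 mean per group and no value of a single array was used, so no spread between replicates can be given for any gene, and no difference below was tested. The arrays are bulk measurements, in which fewer expressing cells and less RNA per cell cannot be told apart. Of 16 markers of neuroblastoma cells and neurons, 5 were listed, with log2 differences of 0.49 for Dbh, 0.26 for Hand2, 0.24 for Isl1, -0.17 for Stmn2 and -0.12 for Th. Because the means are centred for each transcript cluster, the level of a marker could not be checked. Hsp90b1 itself had a centred log2 mean of 0.74 with the control vector and -0.78 in the knockdown, 2.87-fold lower, the direction that its label gives.

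When oxygen is short, the factor HIF is stabilised and binds a short element in target promoters, the hypoxia response element (HRE). Among its known targets are proteins of the mitochondrion. Bnip3 and its relative Bnip3l, also called Nix, sit in the outer mitochondrial membrane and bind autophagy proteins of the LC3 and GABARAP families, which marks the organelle for removal by mitophagy. Fam162a is a mitochondrial protein linked to cell death in low oxygen. Higd1a is a small protein of the inner membrane that associates with respiratory chain complexes. Ak3l1 is the older symbol of Ak4, an adenylate kinase of the mitochondrial matrix. HIF itself was not measured as a protein here.

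The promoters of these genes are shown first because their sequence was not used when the genes were chosen by their differences. The genes were, however, grouped as genes of the response to low oxygen. An HRE core in their promoters is therefore no separate evidence. RefSeq windows on build GRCm38.p6, running from 250 bases before to 50 bases after a start site, were found for 4 of the 5 genes, with 1 start each for Bnip3, Fam162a and Higd1a and 4 starts for Ak4, of which the windows of the first 3 overlap. Bnip3l was not matched. In the stretches below, written in the direction of transcription, capitals mark matches to the core of the hypoxia response element, ACGTG or GCGTG on either strand (a match on the opposite strand reads CACGT or CACGC). The first 4 stretches end at the base before the start site.
Bnip3: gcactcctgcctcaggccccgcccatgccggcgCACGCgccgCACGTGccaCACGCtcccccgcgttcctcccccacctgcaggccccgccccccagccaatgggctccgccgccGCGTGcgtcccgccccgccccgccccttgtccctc
Fam162a: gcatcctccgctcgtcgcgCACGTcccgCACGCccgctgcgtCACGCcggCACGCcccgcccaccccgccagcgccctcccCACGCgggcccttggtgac
Higd1a: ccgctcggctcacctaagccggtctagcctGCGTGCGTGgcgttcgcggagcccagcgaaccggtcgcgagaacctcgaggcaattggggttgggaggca
Ak4, start 1: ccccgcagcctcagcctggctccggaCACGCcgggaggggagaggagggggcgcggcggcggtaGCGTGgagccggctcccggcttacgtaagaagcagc
Ak4, start 4: ccactctgccCACGTGcggggaccggcagg

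The Bnip3 stretch is chr7:138909507-138909656 on the minus strand, that of Fam162a is chr16:36071562-36071661 on the minus strand, and that of Higd1a is chr9:121857797-121857896 on the minus strand. Both Ak4 stretches are on the plus strand, at chr4:101419189-101419288 and chr4:101419479-101419508. The Bnip3 window held 5 matches to the HRE core, of which 2 are the same CACGTG read on both strands, starting at position -108 from the start site. The Fam162a window held 6 matches, 5 of them at or after position -81. Higd1a had 3 matches, of which a pair overlaps in GCGTGCGTG and 1 lies after the start. The windows of Ak4 starts 1, 2 and 3 share the same 2 matches, and that of start 4 had 3, of which 2 are a CACGTG at position -214 read on both strands.

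All 7 windows thus held an HRE core, and so did 43.8% of all 32851 windows in RefSeq. At least 5 matches, as in Bnip3 and Fam162a, were found in 1.66% of all windows, and a CACGTG in 7.15%. The limit of 5 is the count of the Bnip3 window itself, with its CACGTG counted on both strands. The windows of Higd1a and Ak4 held 2 or 3 matches, so the 1.66% does not describe the set. The element contains a CG pair, and the 7 windows were rich in G and C (64.3% to 72.7%, against a median of 52.7% for all windows) and in CG pairs (25 to 39, against a median of 7). The part of base composition in the matches was not tested. The CCAAT motif of NF-Y, the factor that the study as a whole addresses, was found on either strand in 5 of the 7 windows and in 37.4% of all windows. Bnip3 and Higd1a had 1 each, starts 1 to 3 of Ak4 shared 1, and Fam162a and start 4 of Ak4 had none. The Hsp90b1 window held 6 CCAAT matches and 2 HRE cores. These are matches of letters, and binding of a factor was not measured.

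**Figure D1:**
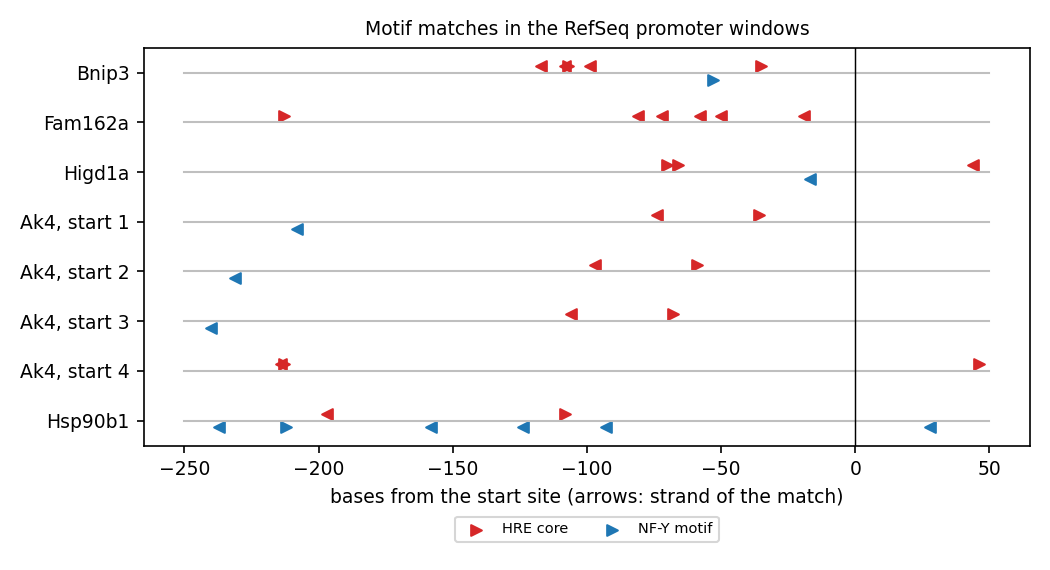
Matches to the HRE core (red) and to the NF-Y motif (blue) by distance in bases from the start site, for each RefSeq window of 250 bases before to 50 after a start, with arrows for the strand of the match. Bnip3 and Fam162a hold 5 and 6 HRE cores, whereas Hsp90b1 holds 2 together with 6 NF-Y motifs.

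Bnip3 had the most negative difference of the 5 genes. Its transcript cluster at the gene itself carries 12 probes (10568785, chromosome 7, minus strand, 146082519 to 146101189). It had a centred log2 mean of 0.49 with the control vector and -0.67 in the knockdown. These are the authors' means over the 4 arrays of each group, in the coordinates of their table, whose genome build was not given in the sources used here and is not that of the promoters above. The difference of -1.15 is 2.23-fold lower, or 55.1% less signal than with the control vector. It stood at rank 11 from the lowest among the 2395 transcript clusters, which ran from -1.63 to 1.45. Another cluster with the symbol Bnip3 (10414269, chromosome 14, 45216340 to 45216903, 31 probes) had means of 0.44 and -0.59, a difference of -1.04, 2.05-fold lower, at rank 15.

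Bnip3l, the closest relative of Bnip3 and the other mitophagy receptor of the set, was lower by much less. At its gene (10421003, minus strand of chromosome 14, 67604076 to 67627701, 36 probes) the means were 0.14 with the control vector and -0.17 in the knockdown, a difference of -0.31, or 1.24-fold lower. A further cluster on chromosome 12 (10394800, 18223404 to 18224060, 26 probes) had means of 0.17 and -0.13 and a difference of -0.29, 1.22-fold lower. Both clusters also carry the symbol Gm10480, so their probes were not assigned to Bnip3l alone. They stood at ranks 587 and 649 from the lowest, in a table whose median difference was -0.16. The gap between Bnip3 and Bnip3l could not be set against a spread between arrays.

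Fam162a, the gene linked to mitochondrial cell death, was measured by 1 cluster at its own locus (10439276, minus strand of chromosome 16, 36042790 to 36071610, 27 probes). Its means were 0.20 and -0.37, which gives a difference of -0.57, 1.48-fold lower, or 32.5% less signal. For Higd1a, the partner of the respiratory chain, the table held 1 cluster (10492860, 28 probes), with means of 0.24 and -0.37, a difference of -0.62, 1.53-fold lower. That cluster lies on chromosome 3 (85719644 to 85720101), whereas RefSeq places Higd1a on chromosome 9, and it shares its symbols with Gm9790, a pseudogene that RefSeq places on chromosome 3. A cluster at the Higd1a gene itself was not listed and has no value here.

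Ak3l1, the adenylate kinase of the matrix, was listed on 2 clusters. The cluster at the gene (10506269, plus strand of chromosome 4, 101091895 to 101139600, 13 probes) had means of 0.22 and -0.23, a difference of -0.46, 1.37-fold lower. The other (10472923, chromosome 2, 72471993 to 72472664, 26 probes) had means of 0.31 and -0.32, a difference of -0.63, 1.55-fold lower. The more negative value was therefore the one read away from the gene. Ordered by the cluster at the gene, the 4 genes that have one run from Bnip3 through Fam162a and Ak3l1 to Bnip3l, and without values per array no neighbours in this order can be separated from one another.

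**Figure D2:**
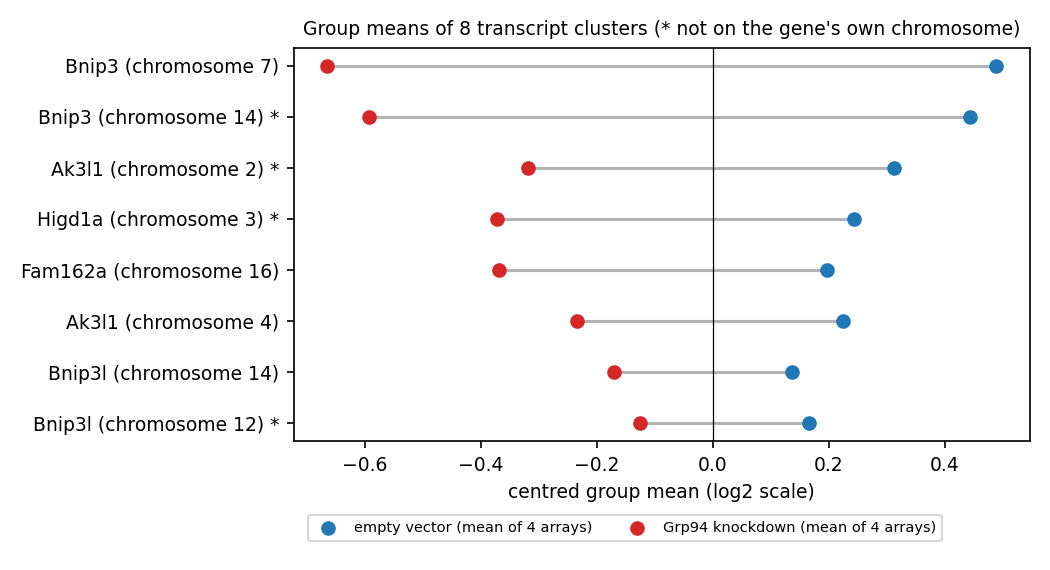
Centred group means on the log2 scale for the 8 transcript clusters, with the empty vector in blue and Grp94 knockdown in red, each the authors' mean of 4 arrays without error bars because no value per array was used. The knockdown mean lies left of the vector mean in all 8, and the distance narrows from 1.15 for Bnip3 on chromosome 7 to 0.29 for Bnip3l on chromosome 12.

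All 8 clusters were lower in the knockdown, and 6 of them, from 4 genes, passed a fold change of 1.3. Among all transcript clusters in the table, 16.1% were lower past that fold change, 6.26% were higher past it, and 59.9% were lower by any amount. Since the genes were chosen on this contrast, nothing is read from their count. The median of the 8 differences was -0.59. The table is limited on the authors' own adjusted p, and a gene outside it has no value here. Its zero point is not settled: measured from the median of all listed clusters, -0.16, the table held 159 clusters lower and 527 higher past a fold change of 1.3, in place of 385 and 150. All 8 clusters of the 5 genes stayed below 0 on that scale, from -0.99 for Bnip3 to -0.13 for Bnip3l.

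**Figure D3:**
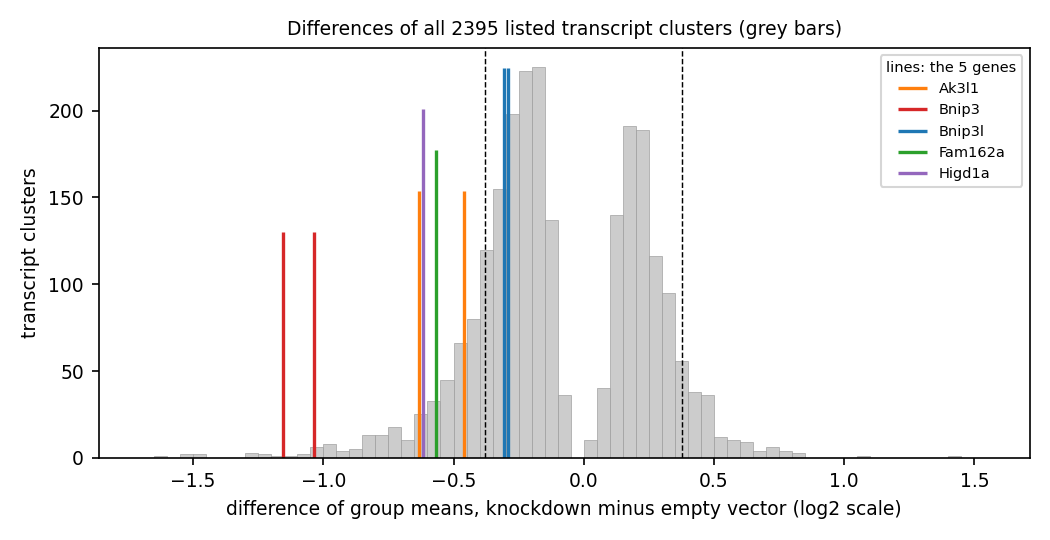
Histogram of the log2 difference between group means, knockdown minus empty vector, for all 2395 listed transcript clusters, with coloured lines at the values of the 5 genes and dashed lines at a fold change of 1.3 in either direction. The line heights only keep the genes apart. Both Bnip3 lines stand in the thin left tail and both Bnip3l lines inside the main body of values below 0.

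Of the 8 clusters, 4, with 1 each of Bnip3, Bnip3l, Higd1a and Ak3l1, were on another chromosome than the gene. They span 458 to 672 bases, against 18671 to 47706 bases for the 4 clusters at the genes, and they have 26 to 31 probes. RefSeq has a pseudogene, Bnip3l-ps, on chromosome 12 under the same identifier as Gm10480, and Gm9790 on chromosome 3 as given above. It lists none under the identifiers of the Bnip3 cluster on chromosome 14 or the Ak3l1 cluster on chromosome 2. Probes of such a cluster may match the mRNA of the gene itself, and the signal of a gene and of its copy cannot be told apart in these values. In the whole table, 93 of 2060 clusters with a single identifier known to RefSeq (4.51%) were on another chromosome than their gene, with a median span of 806 bases against 22497 for the rest.

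How closely such clusters follow their gene was examined over the 50 protein-coding genes that had 1 cluster on their own chromosome and at least 1 elsewhere. Not all of these pairs are distinct, since Atg4a and Syt6 share the same clusters, and Eno1 and Eno1b also share clusters. In the 47 genes other than Bnip3, Bnip3l and Ak3l1, both differences had the same sign in 47. The absolute gap between them had a median of 0.02 and a maximum of 0.12 on the log2 scale. Both clusters of a pair had to lie within the authors' limit on adjusted p, so copies outside that limit were not counted. The agreement therefore does not describe all copies. The gap was 0.01 for Bnip3l, and 28 of the 47 genes had a larger one. It was 0.12 for Bnip3, with 1 larger, and 0.17 for Ak3l1, with none larger. Of these 3 genes Ak3l1 had the widest gap, between 1.37-fold and 1.55-fold lower, and whether this gap exceeds the spread between arrays was not tested.

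**Figure D4:**
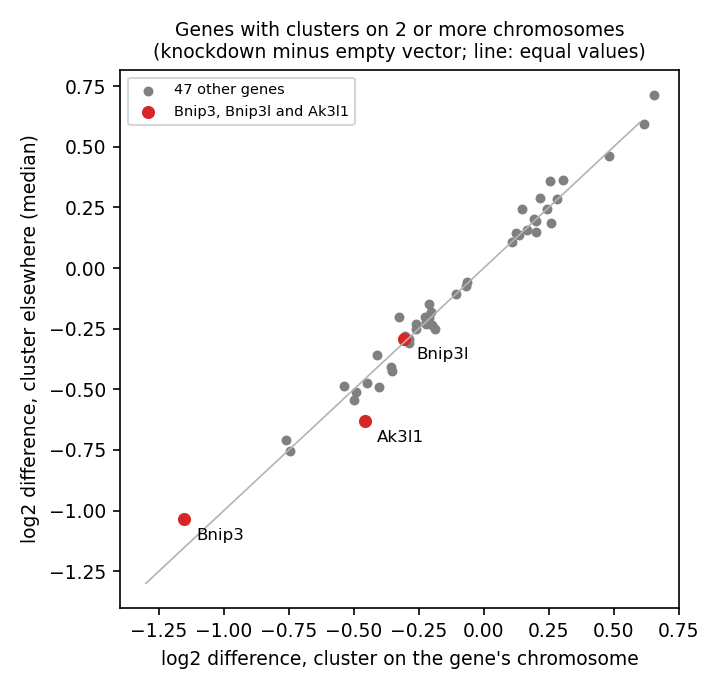
Log2 difference, knockdown minus empty vector, of the cluster on a gene's own chromosome (horizontal) and of its clusters on other chromosomes (vertical, median where there are several), for 50 protein-coding genes. Bnip3l lies on the line of equal values, Bnip3 lies 0.12 above it, and Ak3l1 lies 0.17 below it.

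Related genes were taken from lists drawn up by function, with earlier results of these data known and with the 5 genes left out. A gene had to pass the authors' limit on adjusted p to be listed. The share of all genes on the array that did so is not known here, so nothing is read from how many genes of a list were listed. A broad list of other genes, mitochondrial or linked to low oxygen, included the most negative values of 7 such lists. Of its 31 genes, 13 were listed on 14 clusters, at a median difference of -0.30. Of these clusters, 13 were lower, 6 of them past a fold change of 1.3, and 1 was higher. Of all clusters in the table, 59.9% were lower by any amount and 16.1% were lower past that fold change. Pdk1, the kinase that shuts off pyruvate dehydrogenase and so withholds fuel from the respiratory chain, had a log2 difference of -0.99. Cox4i2, the low-oxygen form of a cytochrome c oxidase subunit, had -0.80, and Lonp1, a matrix protease, had -0.70. Cox7a1, a form of another oxidase subunit, had -0.71. Ndufa4l2, a relative of the oxidase component Ndufa4, had -0.60, and Ndufa4 itself had -0.18. Of the hexokinases, which can bind the mitochondrial surface, Hk2 had -0.52 and Hk1 had -0.27. Mxi1, a MYC antagonist, had -0.27. Vdac2, a channel of the outer membrane, had -0.29 at its gene and -0.31 on a cluster away from it, on chromosome 5. Slc25a4 and Ppif, of the inner membrane and matrix, had -0.18 and -0.15. Glud1, which makes ketoglutarate from glutamate, was the 1 that was higher, at 0.12. The values of Pdk1, Cox4i2, Cox7a1 and Lonp1 lay between those of Bnip3 and the more negative value of Ak3l1 (-0.63). Those of Ndufa4l2 and Hk2 lay between Bnip3 and Ak3l1 at its gene (-0.46).

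Of 19 mitophagy genes other than Bnip3 and Bnip3l, 2 were listed. Sqstm1, the autophagy adaptor p62, had -0.19 and Optn, an adaptor of the PINK1 and Parkin route, had 0.12, and neither passed the fold change of 1.3. Of 37 core autophagy genes, 9 were listed on 11 clusters. Their median was -0.30, with 9 clusters lower, 3 of them past a fold change of 1.3, and 2 higher. Of all listed clusters, 16.1% were lower past it, and none of the 3 remained past it when measured from the median of the table, nor at a fold change of 1.5. Ulk1, the kinase that starts autophagy, had -0.52, and Wipi1, which binds the forming membrane, had -0.43. Atg4a, a protease for LC3-type proteins, had -0.41 on chromosome 3 and -0.36 on chromosome X, on clusters shared with Syt6. The cluster at the Atg4a gene is that on chromosome X, which did not pass a fold change of 1.3. Atg9a, a membrane protein of the pathway, had -0.37. Map1lc3b, which encodes the LC3 protein that Bnip3 binds, was read on chromosome 8 at -0.30 and on chromosome 14 at -0.30. Atg9b had -0.18 and Pik3r4, part of the lipid kinase complex, had -0.18. Lamp1 and Lamp2, of the lysosomal membrane, were higher at 0.13 and 0.23.

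In the BCL2 family, to which Bnip3 and Bnip3l are distantly related, 4 of 25 other genes were listed. Bid, a BH3-only activator of cell death, was higher at 0.43 and Bcl2, which inhibits cell death, at 0.45 on a cluster shared with D630008O14Rik. Bmf, another BH3-only gene, had -0.29 and Bax, which permeabilises the outer membrane, had -0.12. Mfn1, a fusion protein of the outer membrane, had -0.37 and Immt, of the cristae junctions, had -0.13, and these were the 2 of 24 fission, fusion and cristae genes that were listed. Of 9 adenylate kinases other than Ak3l1, the cytosolic Ak1 was listed, at -0.35. Higd2a, a relative of Higd1a that also works with the respiratory chain, was the 1 of 4 related HIG1 domain and Fam162 genes listed, and it went the other way, at 0.46. Together these 7 lists held 35 clusters, of which 28 were lower and 7 higher. Past a fold change of 1.3, 9 were lower and 3 higher. Of all clusters in the table, 59.9% were lower by any amount, 16.1% lower past that fold change and 6.26% higher past it. The median of the 35 was -0.29, beside -0.16 for all clusters in the table. Measured from that median, 25 were lower and 10 higher, and Ppif, Immt and Bax were those that turned.

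**Figure D5:**
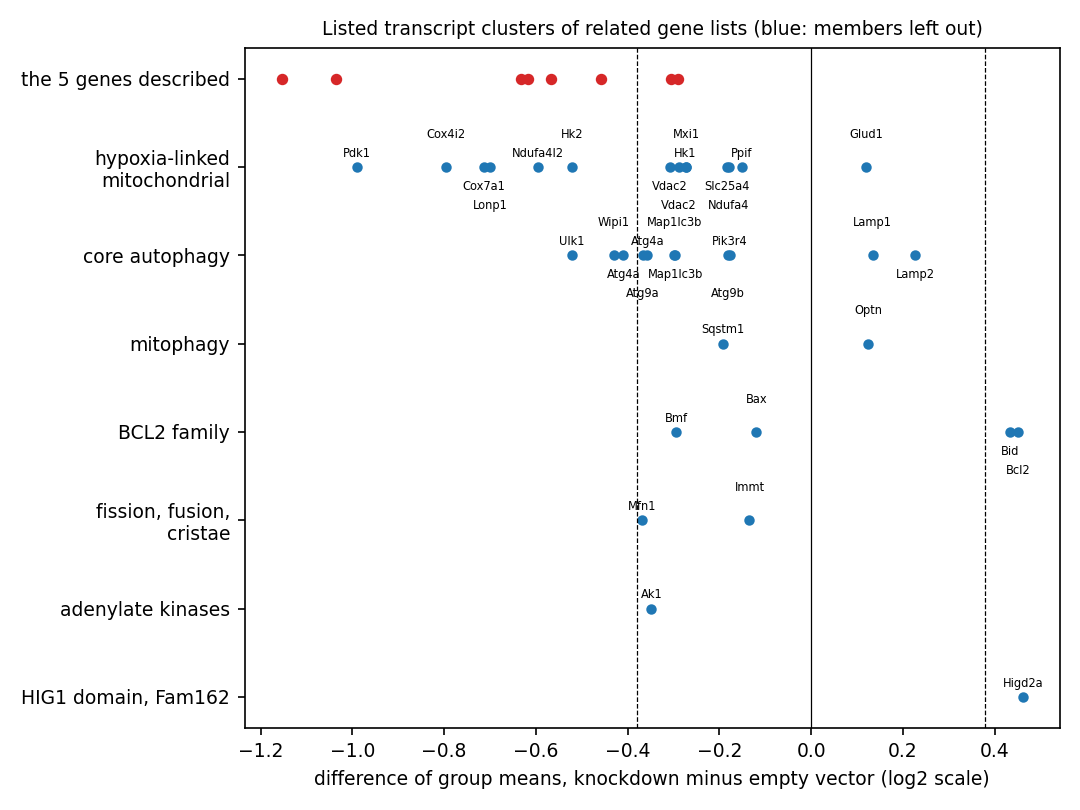
Log2 difference between group means, knockdown minus empty vector, of each listed transcript cluster of the 5 genes (red) and of 7 related gene lists without them (blue), with dashed lines at a fold change of 1.3. Pdk1, Cox4i2, Cox7a1 and Lonp1 lie within the range of the red points, as do blue points of other lists, Ulk1, Wipi1 and Mfn1 among them. Higd2a, Bid and Bcl2 lie to the right of the upper dashed line.

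In the lists of HIF and glycolysis genes, all listed clusters were lower. These lists too were drawn up with earlier results of these data known, so nothing is read from this shared direction. Of 19 genes for HIF and its regulation, 4 were listed and had differences of -0.74 for Egln3 (an oxygen-sensing prolyl hydroxylase), -0.67 for Bhlhe40 (a transcriptional repressor), -0.55 for Kdm4b (a histone demethylase) and -0.48 for Egln1 (a relative of Egln3), which is named to complete the count and after its value was seen. Of 23 genes of glycolysis and glucose uptake, 19 were listed. All 53 of their clusters were lower, 14 past a fold change of 1.3, with a median of -0.19. The clusters of Hk1 and Hk2 are among them and were already counted in the broad list above. Of all clusters in the table, 59.9% were lower by any amount and 16.1% were lower past that fold change. Of the 53, 28 carry the symbol Gapdh, a single enzyme read on 17 chromosomes, with differences from -0.20 to -0.10. The other 18 genes had 25 clusters, a median of -0.48 and all 14 of those past the fold change, a split made after the values were seen. Measured from the median of the table, 32 of the 53 were lower and 21 higher, and all 21 were Gapdh clusters. In glycolysis the largest were those of Aldoc (-1.24), Eno2 (-1.03) and Slc2a1 (-0.82), so that Bnip3 lay between the first and the second of these. The single gene whose difference was nearest to that of Bnip3 at its locus was Gys1, a glycogen synthase, at -1.12, and for the Bnip3 cluster on chromosome 14 it was Ache at -1.04. Nearest to the others were Hap1 for Fam162a (-0.57), Mknk1 for Higd1a (-0.62), Syt17 and Hpse for Ak3l1 (-0.46 and -0.63), and Auh and Cenpt for Bnip3l (-0.31 and -0.29). Likeness here is the distance between single differences of 2 group means, and no pattern over arrays was compared.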

How the data were processed

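The table was made by the authors from 8 Affymetrix Mouse Gene 1.0 ST arrays in Agilent GeneSpring GX, with genes of low expression left out. It holds, as deposited, 1 centred log2 mean per group for each transcript cluster. Probe summarization, normalization between arrays and genome build were not given in the sources used here. The table is limited on adjusted p, with 0 rows above 0.01 in that column. Its fold changes, p-values and adjusted p-values are the authors' own comparison and were not used. The effect is the knockdown mean minus the empty vector mean. A fold change of 1.3 was used for counts. Groups came from the titles of the samples.

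With 1 mean per group, no test, replicate error or removal of an array was possible. The number of arrays limits the precision. Symbols of a row were split, and identifiers matched to RefSeq (GRCm38.p6) for chromosomes and promoters only. Named genes were Hsp90b1, the 5 genes, all listed members of 7 related lists, the top 3 of the HIF and glycolysis lists, and the genes of nearest difference and position. The listed cell markers were named too, and Egln1 and Gapdh after their values were seen. The members and lists were chosen with earlier results of these data known. Alternatives changed the fold change, the zero point, the counting of clusters and the motif search. Scripts used pandas 2.3.3 and numpy 2.4.6 under Python 3.11.15, with matplotlib 3.10.9 for plots, and were tested on simulated data.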

Additional observations from a re-analysis of the deposited data

How the results depend on the processing

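No paired analysis was possible because the columns hold 1 mean per group and carry no replicate number, and for the same reason no array could be left out. Of the 8 clusters of the 5 genes, 6 were lower past a fold change of 1.3, 8 past 1.2, 4 past 1.5 and 2, both of Bnip3, past a fold change of 2. Counting only clusters on the gene's own chromosome, an alternative chosen after the data were seen, left 3. Re-centring on the median of all listed clusters kept every sign. It gave -0.99 and -0.87 for Bnip3 (chromosomes 7 and 14), -0.47 and -0.29 for Ak3l1 (2 and 4), -0.45 for Higd1a, -0.40 for Fam162a, and -0.14 and -0.13 for Bnip3l (14 and 12). The true zero point is not known, since unlisted clusters were not analysed here. In the whole table, 385 lower and 150 higher clusters became 761 and 355 past 1.2, 128 and 34 past 1.5, 20 and 2 past a fold change of 2, and 159 and 527 after re-centring. The 7 related lists went from 9 lower to 20 past 1.2, 5 past 1.5 and 5 after re-centring, and from 3 higher to 0 past 1.5. With ACGTG alone, 4 of the 7 promoter windows had a match, beside 19.6% of all windows. Core autophagy genes went from 3 lower to 0 past 1.5 and 0 after re-centring, and HIF genes from 4 to 2 past 1.5. In 15 comparisons of these main counts and shares with an alternative, those of the 5 genes past 1.2 and 1.5 included, the value stayed within 1.5 times. In 24 further comparisons the value was counted as moved. These include every re-centred difference of the 5 genes, counted as moved even where the change was within 1.5 times. An example is Bnip3 on chromosome 7, which went from -1.15 to -0.99.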

Other observations

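The nearest listed clusters along the chromosome, within 1 Mb, did not share 1 direction. Beside Bnip3 on chromosome 7, Stk32c (146289538 to 146374372) lay 188 kb away with a log2 difference of -0.74. Ppp2r2a (67632893 to 67691281) lay 5.19 kb from Bnip3l on chromosome 14 and was higher at 0.17, while Trim35 on its other side (66915862 to 66930261) had -0.29. Fam162a had Pdia5 (35397398 to 35490959) at 552 kb with -0.26. For the clusters away from the genes, the neighbours were Gpr137c (0.36) for Bnip3 on chromosome 14, Pdk1 (-0.99, 731 kb) and Gpr155 (-0.30) for Ak3l1 on chromosome 2, and Fbxw7 (0.20) and Mab21l2 (0.39) for Higd1a on chromosome 3. None was found within 1 Mb of Ak3l1 on chromosome 4 or of Bnip3l on chromosome 12.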
